A study of Rattus norvegicus with 24 samples.

Results

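The 10 genes described here serve carnitine synthesis, the carnitine shuttle that carries long-chain fatty acids into mitochondria, or mitochondrial beta-oxidation of fatty acids. They are Cpt1a, Cpt2, Slc25a20, Bbox1, Acaa2, Decr1, Acadm, Acadl, Hadha and Hadhb. They were chosen by name, and the platform annotation gave them 15 of the 31042 probe sets tested, or 10 of the 14217 genes with a probe set named for them alone. Where a gene has several, the brightest on average over the arrays describes it, and the others are given beside it. Expression was measured in primary rat hepatocytes in a collagen sandwich, a culture between layers of matrix that keeps liver functions longer, on 24 Affymetrix arrays. Cells had 24 h of BZP (benzylpiperazine) at 625 µM, TFMPP (trifluoromethylphenylpiperazine) at 35 µM, MeOPP (methoxyphenylpiperazine) at 522 µM or MDBP (methylenedioxybenzylpiperazine) at 467 µM, each its EC20, the concentration that gives 20 percent of an effect, per the labels. Each drug has 3 treated arrays, and every treated array has its own named control with 0.1 percent DMSO, which makes 12 pairs. The labels do not say whether treated cells also held DMSO or whether replicates came from separate animals, so p-values reflect only how far these samples spread, which may be technical. Values are RMA log2 expression, where 1 unit is a doubling, and a change is treated minus its named control. A change was called at an adjusted p under 0.05 in limma with Benjamini-Hochberg adjustment over all probe sets, from a fit of all 24 arrays with a term for each pair.

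Long-chain fatty acids cannot cross the inner mitochondrial membrane as CoA esters. Cpt1a in the outer membrane moves the acyl group to carnitine, the carrier Slc25a20 exchanges acylcarnitine for carnitine, and Cpt2 on the inner side restores the CoA ester, while Bbox1 makes carnitine itself in the liver. Each round of oxidation then uses an acyl-CoA dehydrogenase such as Acadl or Acadm, a hydratase and a hydroxyacyl-CoA dehydrogenase carried for long chains by Hadha, and a thiolase, which is Hadhb for long and Acaa2 for shorter chains. Decr1 prepares unsaturated chains for the same path. In liver several of these genes are known targets of the fasting receptor PPAR alpha, and their products supply acetyl-CoA for ketone bodies.

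Alb, the albumin message of hepatocytes, averaged 14.06 in treated arrays and 14.07 in DMSO arrays, close to the highest value of the table, so its change is not read here. Of the 9 measured hepatocyte markers, 5 fell in the mean of the 4 drugs, with a median of -0.23, where 11.9 percent of all genes were called lower. Apob, of the lipoprotein particle, changed by -1.02 ± 0.06 (SE, n = 12 pairs; limma adjusted p = 3.12e-09), as far as Acaa2, and the other falls were Cps1 at -0.37 ± 0.06, Tat at -0.28 ± 0.05, Ttr at -0.24 ± 0.04 and Hnf4a at -0.23 ± 0.05. Of 9 Kupffer cell and leukocyte markers, 6 fell and 1 rose, led by Clec4f at -0.48 ± 0.08 and by Cd68 at 0.45 ± 0.08, and their summed level, log2 of the sum of linear values, ran from 9.87 to 10.96 in treated arrays, against 10.08 to 11.59 in DMSO arrays. The dimmest was Adgre1, and no marker value is 0 on this scale. Of 10 stellate cell markers 3 fell, led by Col3a1 at -0.68 ± 0.07, and of 8 endothelial and 5 cholangiocyte markers none was called. Their part in the results below was not tested. In RNA of whole cultures, fewer cells of a type and less RNA per cell cannot be told apart. Clustering of the DMSO arrays placed the 12 pairs in 5 array sets, which the labels do not name. By that clustering, DMSO arrays correlated at 0.9943 to 0.9971 within a set and 0.9622 to 0.9919 between sets, which describes the sets and is no test of them. Pairs numbered 1 made up set 1. Pairs numbered 2 made up set 2, except that of MDBP, which stood alone as set 5. Pairs numbered 3 fell into set 3 for BZP and MDBP and into set 4 for TFMPP and MeOPP.

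Averaged over the 4 drugs, 8 of the 10 genes fell and none rose, where 11.9 percent of all genes were called lower and 18 percent higher. Bbox1 fell most, by 1.55 on the log2 scale, followed by Acaa2, Decr1, Acadm, Slc25a20, Hadha and Cpt1a, and Hadhb fell by 0.25. Cpt2 and Acadl were not called, at -0.09 ± 0.05 (SE, n = 12 pairs; limma adjusted p = 0.25) and -0.12 ± 0.05 (adjusted p = 0.0911). By probe set, 11 of 15 were called lower, where 9.85 percent of all probe sets were called lower and 12.5 percent higher. Of the 15, 9 were lower in all 12 pairs, as were 3.89 percent of all probe sets. With a gene's probe sets averaged, 9 of the 10 genes fell, in a separate fit whose share over all genes is not given here. The median over the 10 genes was -0.68, against 0.01 over all 14217 genes. The count was 11 without the pair terms, where 2.86 percent of all probe sets were called lower, and 11 with 1 value per array set, where the share was 6.67 percent. That these genes as a group fell was known when they were chosen, so the counts describe them and are not independent evidence.

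**Figure D1:**
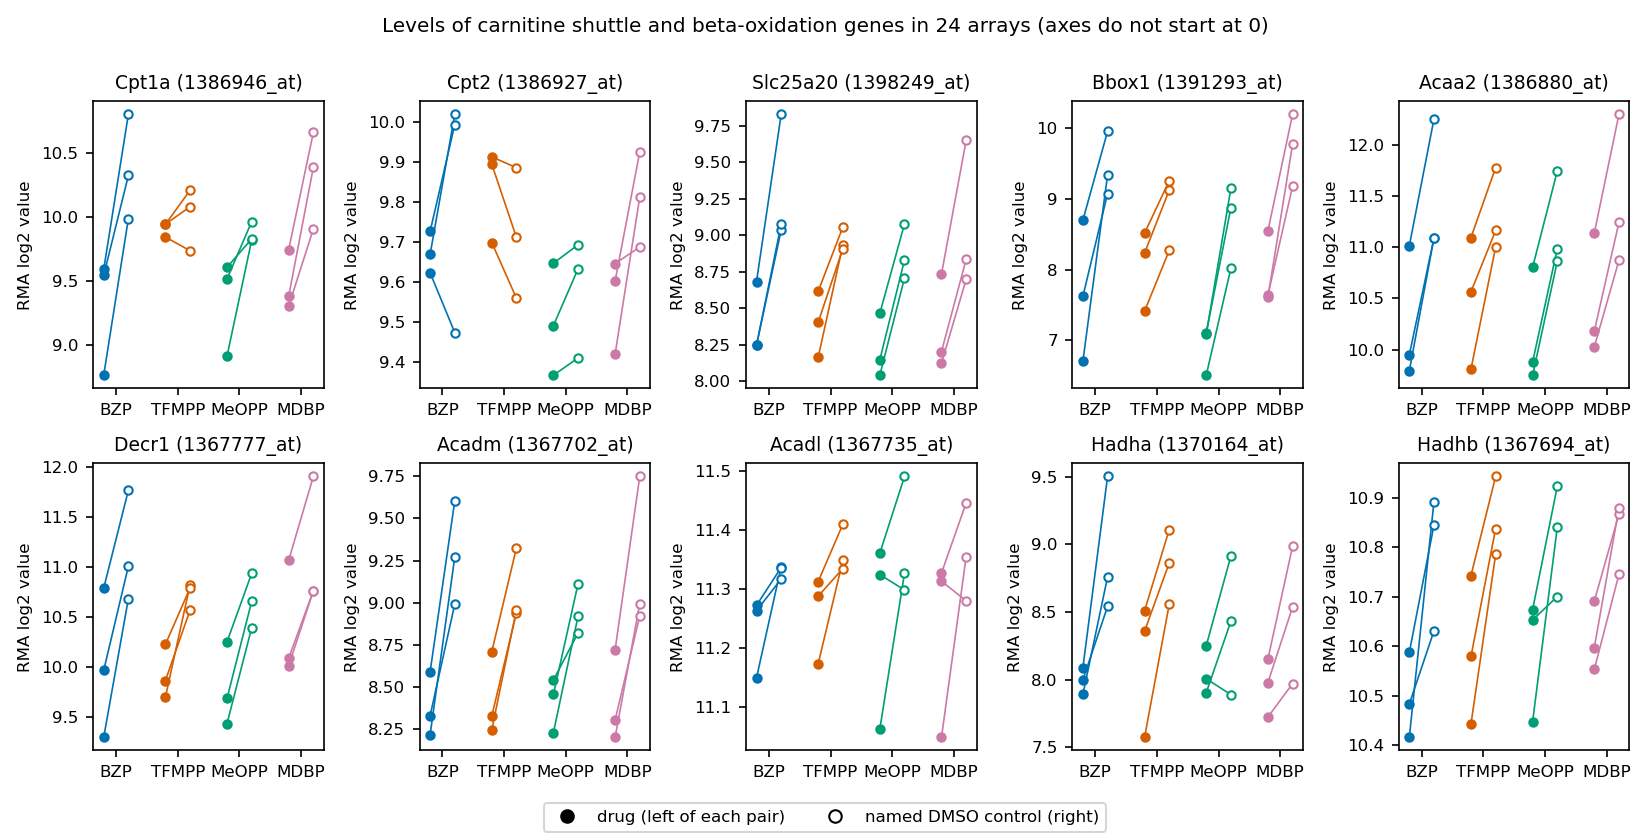
RMA log2 level of the 10 genes in all 24 arrays, with each drug's arrays as filled points left of the open points of their named DMSO controls and a line joining each pair; the vertical axes differ between genes and do not start at 0. Bbox1, Acaa2, Decr1, Acadm, Slc25a20 and Hadhb are lower in the treated array of all 12 pairs, while Cpt2 runs both ways.

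**Figure D2:**
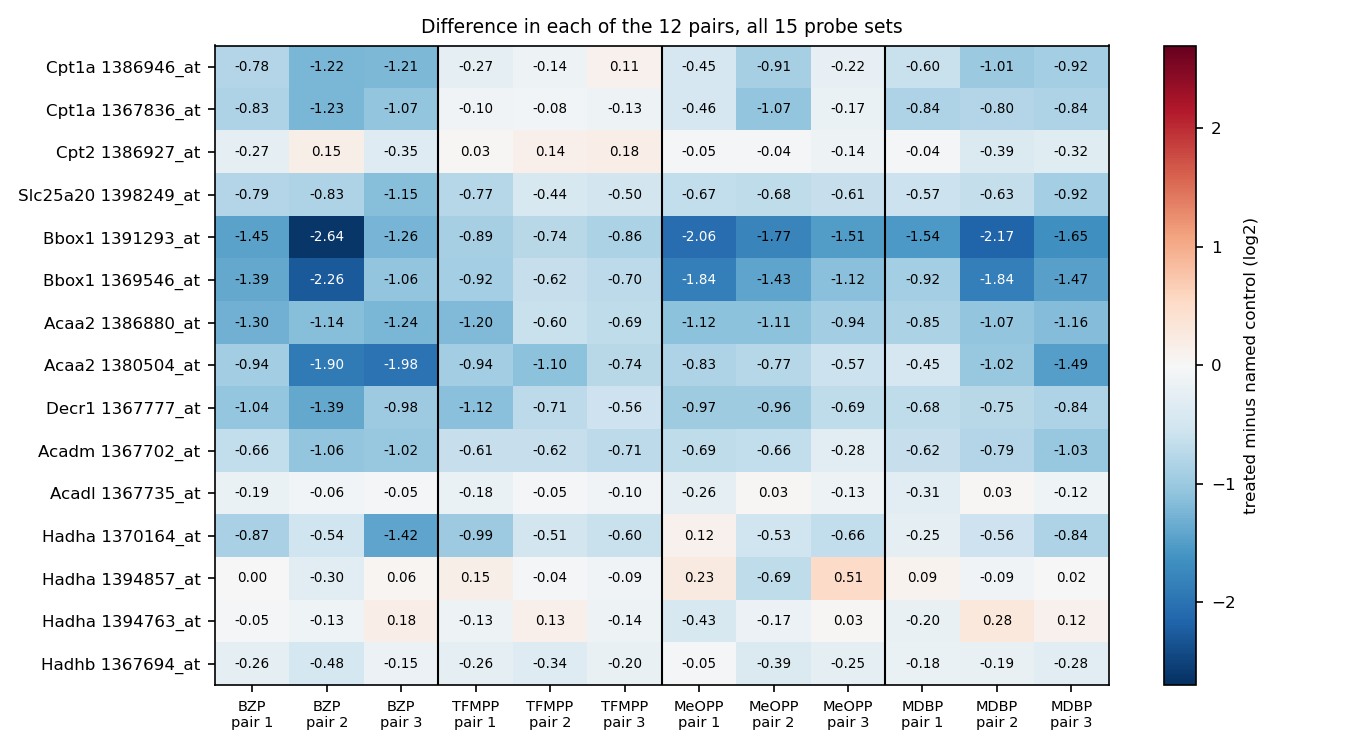
Treated minus named control (log2) for all 15 probe sets in rows and the 12 pairs in columns, grouped by drug; blue is lower in the treated array. The deepest cell is Bbox1 in pair 2 of BZP, at -2.64, and the dimmer Hadha probe sets 1394857_at and 1394763_at lie on either side of 0.

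Bbox1 (probe set 1391293_at), the hydroxylase that completes carnitine synthesis from butyrobetaine, stood at 7.63, 6.71 and 8.70 with BZP, against 9.08, 9.34 and 9.96 in its controls. It stood at 8.24, 8.52 and 7.41 with TFMPP, against 9.13, 9.26 and 8.27 in its controls. The corresponding values were 7.09, 7.11 and 6.51 with MeOPP, against 9.15, 8.88 and 8.02 in its controls. The last group had 7.64, 7.61 and 8.55 with MDBP, against 9.18, 9.78 and 10.20 in its controls. All 3 treated arrays lay below all 3 controls with BZP, MeOPP and MDBP, while with TFMPP the groups overlapped although the treated array was lower in each pair. The change was -1.78 ± 0.20 with BZP (3.44-fold lower; SE, n = 3 pairs; limma adjusted p = 3.34e-05), -1.78 ± 0.20 with MeOPP (adjusted p = 4.55e-05) and -1.79 ± 0.20 with MDBP (adjusted p = 5.00e-05). With TFMPP it was -0.83 ± 0.20 (1.78-fold lower; limma adjusted p = 0.0403). The TFMPP call was lost without any of its pairs, at 0.242, 0.169 and 0.246 without pairs 1, 2 and 3, without pair 2 of MeOPP, at 0.0548, and with an intensity trend and robust prior, at 0.0553. The other probe set of Bbox1, 1369546_at, gave -1.57 ± 0.20, -0.75 ± 0.20, -1.46 ± 0.20 and -1.41 ± 0.20 with BZP, TFMPP, MeOPP and MDBP. This probe set was not called with TFMPP (adjusted p = 0.0703), although it passed on the TFMPP arrays alone, at 0.00185. Its TFMPP value also passed without pair 2 of BZP, pair 3 of BZP or pair 1 of MDBP, at 0.0196, 0.0376 and 0.04996.

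RefSeq gives Bbox1 a pair of starts in the rat genome build GRCr8, and the 300 bases around each, 250 before the start and 50 from its first base on, are shown because this gene fell most. The first window lies at chr3:117326015-117326314, minus strand, and the second at chr3:117317588-117317887, minus strand. Capitals mark the nuclear receptor half-site AGGTCA, which was found in the second window and not in the first.
Bbox1 first start: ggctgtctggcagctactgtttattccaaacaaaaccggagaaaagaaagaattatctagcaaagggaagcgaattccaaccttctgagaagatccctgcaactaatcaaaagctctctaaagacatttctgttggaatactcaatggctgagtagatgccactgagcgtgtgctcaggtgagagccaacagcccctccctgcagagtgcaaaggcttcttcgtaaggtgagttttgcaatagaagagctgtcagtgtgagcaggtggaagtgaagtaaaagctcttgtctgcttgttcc
Bbox1 second start: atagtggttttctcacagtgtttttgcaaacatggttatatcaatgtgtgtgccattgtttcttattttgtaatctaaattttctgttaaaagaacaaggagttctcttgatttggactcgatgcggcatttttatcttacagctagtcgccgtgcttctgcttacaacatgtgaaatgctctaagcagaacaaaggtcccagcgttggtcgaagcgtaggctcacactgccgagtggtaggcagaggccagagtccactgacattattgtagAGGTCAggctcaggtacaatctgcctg

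Cpt1a (probe set 1386946_at), the carnitine palmitoyltransferase that controls entry, stood at 9.54, 8.76 and 9.59 with BZP, against 10.32, 9.98 and 10.80 in its controls. It stood at 9.51, 8.91 and 9.60 with MeOPP, against 9.96, 9.82 and 9.83 in its controls. It stood at 9.30, 9.38 and 9.74 with MDBP, against 9.90, 10.39 and 10.66 in its controls. All treated arrays of these 3 drugs lay below all of their controls. For TFMPP it had 9.94, 9.94 and 9.84 in treated arrays, against 10.21, 10.08 and 9.73 in its controls. There the groups overlapped, and in pair 3 the treated array was the higher. The changes were -1.07 ± 0.13 with BZP (2.1-fold lower; SE, n = 3 pairs; limma adjusted p = 8.80e-05), -0.84 ± 0.13 with MDBP (adjusted p = 0.000891) and -0.53 ± 0.13 with MeOPP (adjusted p = 0.026). With TFMPP the value was -0.10 ± 0.13 (adjusted p = 0.896). The MeOPP call was lost without its pair 1, at 0.0983, without its pair 2, at 0.292, and on the MeOPP arrays alone, at 0.0697; without pair 2 the change was -0.34. The dimmer probe set 1367836_at gave -1.04 ± 0.13, -0.10 ± 0.13, -0.57 ± 0.13 and -0.82 ± 0.13 with BZP, TFMPP, MeOPP and MDBP, close to the first in every drug, and without pair 2 of MeOPP its change was -0.32. Its MeOPP call was lost without pair 1, without pair 2 and on the MeOPP arrays alone, at 0.0578, 0.208 and 0.0902.

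Slc25a20 (probe set 1398249_at), the carnitine-acylcarnitine carrier of the inner membrane, lay between 8.04 and 8.73 with a median of 8.25 in the 12 treated arrays, against 8.70 to 9.83 with a median of 8.98 in the 12 DMSO arrays. It was lower in the treated array in 12 of 12 pairs, by differences of -1.15 to -0.44. Its groups did not overlap with BZP, TFMPP and MeOPP. With MDBP they did, where it had 8.12, 8.20 and 8.73 in treated arrays, against 8.70, 8.83 and 9.65 in its controls. It changed by -0.92 ± 0.10, -0.57 ± 0.10, -0.65 ± 0.10 and -0.71 ± 0.10 with BZP, TFMPP, MeOPP and MDBP (SE, n = 3 pairs), with limma adjusted p-values of 3.81e-05, 0.00814, 0.000977 and 0.000446. Without pair 1 or pair 3 of TFMPP, the TFMPP call was lost, at 0.136 and 0.0582.

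Its promoter window is shown because, of the 8 windows that RefSeq held for 7 of the 10 genes, it alone held a match to the direct repeat that PPAR alpha binds with its partner RXR, searched as AGGTCA, any base, and AGGTCA again. The match, in capitals, has 2 mismatches in its 12 fixed letters and starts 15 bases past the first base of the gene. The window lies at chr8:118243323-118243622, plus strand.
Slc25a20: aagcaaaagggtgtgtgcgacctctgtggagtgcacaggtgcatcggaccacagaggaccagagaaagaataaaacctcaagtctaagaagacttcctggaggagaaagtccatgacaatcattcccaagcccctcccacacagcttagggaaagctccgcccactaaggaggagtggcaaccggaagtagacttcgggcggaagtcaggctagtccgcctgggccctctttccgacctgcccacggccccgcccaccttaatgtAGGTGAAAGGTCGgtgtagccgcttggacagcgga

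Searched on both strands, the direct repeat with up to 2 mismatches was in 3.77 percent of all 33469 windows and in 1 of the 8, and without mismatches in 0.0538 percent and in 0 of the 8. The half-site AGGTCA, which the repeat contains, was in 16.2 percent of all windows and in 2 of the 8, the second window of Bbox1, on the printed strand, and that of Hadhb, on the other. The related motif TNAAGGTCA, which also contains it, was in 1.2 percent and the TATA motif TATAAA in 14.2 percent, and neither was in any of the 8. These are matches of letters in a short window only.

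Cpt2 (probe set 1386927_at), the transferase on the inner side, was not called with any drug. It stood at 9.73, 9.62 and 9.67 with BZP, against 9.99, 9.47 and 10.02 in its controls. It had 9.91, 9.70 and 9.89 with TFMPP, against 9.89, 9.56 and 9.71 in its controls. The groups overlapped with both drugs, and with TFMPP the treated array was the higher in all 3 pairs. With MeOPP the differences were -0.05, -0.04 and -0.14, and with MDBP -0.04, -0.39 and -0.32, where all 3 treated arrays lay below all 3 controls. The values were -0.16 ± 0.10, 0.12 ± 0.10, -0.08 ± 0.10 and -0.25 ± 0.10 with BZP, TFMPP, MeOPP and MDBP (SE, n = 3 pairs; limma adjusted p = 0.432, 0.795, 0.781 and 0.186).

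Of the acyl-CoA dehydrogenases, Acadm fell with every drug and Acadl was not called with any. Acadm (probe set 1367702_at), which acts on medium chains, lay between 8.20 and 8.72 with a median of 8.33 in the 12 treated arrays, against 8.82 to 9.75 with a median of 8.99 in the 12 DMSO arrays. It was lower in 12 of 12 pairs, with no overlap of treated and control arrays with any of the 4 drugs. The changes were -0.91 ± 0.11, -0.65 ± 0.11, -0.54 ± 0.11 and -0.81 ± 0.11 with BZP, TFMPP, MeOPP and MDBP (SE, n = 3 pairs; limma adjusted p = 7.73e-05, 0.00549, 0.00708 and 0.000272). The smallest was pair 3 of MeOPP, at -0.28. The MeOPP call was lost without its pair 1 or 2, at 0.0922 and 0.0826, and the TFMPP call without its pair 1 or 3, at 0.0557 and 0.0793.

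Acadl (probe set 1367735_at), the long-chain dehydrogenase, lay between 11.05 and 11.36 with a median of 11.28 in the 12 treated arrays, against 11.28 to 11.49 with a median of 11.34 in the 12 DMSO arrays. Its differences ran from -0.31 to 0.03, and 10 of 12 pairs were lower, with no overlap of groups with BZP and TFMPP. The values were -0.10 ± 0.09, -0.11 ± 0.09, -0.12 ± 0.09 and -0.13 ± 0.09 with BZP, TFMPP, MeOPP and MDBP (SE, n = 3 pairs), with adjusted p-values of 0.595, 0.781, 0.552 and 0.492. In the mean of the drugs Acadl passed among probe sets with a mean of at least 5, at 0.0462, and with an intensity trend and robust prior, at 0.0468.

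Acaa2 (probe set 1386880_at), the thiolase that makes the last cut of medium and short chains, stood at 9.79, 9.95 and 11.02 with BZP, against 11.09, 11.09 and 12.26 in its controls. It stood at 9.81, 10.57 and 11.10 with TFMPP, against 11.00, 11.17 and 11.78 in its controls. With MeOPP it had 9.75, 9.88 and 10.81 in treated arrays, against 10.86, 10.99 and 11.75 in its controls. With MDBP it had 10.03, 10.18 and 11.14 in treated arrays, against 10.87, 11.25 and 12.30 in its controls. Treated and control values overlapped with TFMPP and MDBP, yet the treated array was lower in every pair. The changes were -1.23 ± 0.11 with BZP (2.35-fold lower; limma adjusted p = 6.65e-06), -0.83 ± 0.11 with TFMPP (adjusted p = 0.00117), -1.06 ± 0.11 with MeOPP (adjusted p = 3.42e-05) and -1.03 ± 0.11 with MDBP (adjusted p = 4.66e-05; SE, n = 3 pairs). No left-out pair ended these calls. The second probe set, 1380504_at, fell with each drug too, by 1.61 ± 0.18 with BZP and by 0.72 ± 0.18 with MeOPP, but its TFMPP and MeOPP calls were lost without any pair of that drug, at 0.0762 to 0.154 and 0.0742 to 0.175, and its MDBP call without pair 3, at 0.0743.

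Decr1 (probe set 1367777_at), the reductase for chains with double bonds, lay between 9.29 and 11.07 with a median of 9.99 in the 12 treated arrays, against 10.39 to 11.90 with a median of 10.77 in the 12 DMSO arrays. Every pair was lower, by differences of -1.39 to -0.56, and with BZP and MDBP the treated and control arrays still overlapped. It changed by -1.14 ± 0.11, -0.80 ± 0.11, -0.87 ± 0.11 and -0.75 ± 0.11 with BZP, TFMPP, MeOPP and MDBP (SE, n = 3 pairs; limma adjusted p = 1.59e-05, 0.00185, 0.000215 and 0.000701). Together with the main probe set of Acaa2, it kept its call with every drug whichever pair was left out.

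Hadha and Hadhb encode the alpha and beta subunits of the trifunctional protein, which carries out the last steps of long-chain oxidation. Hadha (probe set 1370164_at) stood at 7.89, 8.00 and 8.09 with BZP, against 8.76, 8.54 and 9.50 in its controls. It stood at 7.57, 8.36 and 8.51 with TFMPP, against 8.56, 8.86 and 9.11 in its controls. Treated and control arrays did not overlap with these drugs. With MeOPP the differences were 0.12, -0.53 and -0.66, and with MDBP -0.25, -0.56 and -0.84, and in both the groups overlapped. Hadha changed by -0.94 ± 0.17 with BZP (SE, n = 3 pairs; limma adjusted p = 0.00196) and -0.70 ± 0.17 with TFMPP (adjusted p = 0.0461). It stood at -0.36 ± 0.17 with MeOPP (adjusted p = 0.27) and -0.55 ± 0.17 with MDBP (adjusted p = 0.0624). The TFMPP call was lost without any of its own pairs, at 0.134 to 0.399, and without pair 1 of BZP, pair 2 of MeOPP or pair 2 of MDBP, at 0.0565 to 0.0658. The MDBP value passed on its own arrays, at 0.0421, among probe sets with a mean of at least 5, at 0.0459, and without pair 2 or 3 of BZP or pair 1 of MeOPP, at 0.032 to 0.0438. Its dimmer probe sets had mean differences of -0.01 ± 0.08 for 1394857_at and -0.04 ± 0.06 for 1394763_at (SE, n = 12 pairs; adjusted p = 0.944 and 0.682). Mean levels of 1394763_at, 2.83 in treated and 2.87 in DMSO arrays, lay below the array medians of 4.454 to 4.524. Those of 1394857_at, 5.04 in treated and 5.05 in DMSO arrays, lay above these medians. So 1394857_at did not show the fall of 1370164_at, and the reason was not tested.

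Hadhb (probe set 1367694_at) lay between 10.42 and 10.74 with a median of 10.58 in the 12 treated arrays, against 10.63 to 10.94 with a median of 10.84 in the 12 DMSO arrays. It was lower in 12 of 12 pairs and did not overlap with its controls in any drug, but by small differences of -0.48 to -0.05. No single drug gave a call, at -0.29 ± 0.09, -0.27 ± 0.09, -0.23 ± 0.09 and -0.22 ± 0.09 with BZP, TFMPP, MeOPP and MDBP (SE, n = 3 pairs; limma adjusted p = 0.0633, 0.224, 0.198 and 0.211). The mean of the drugs was called, at -0.25 ± 0.05 (SE, n = 12 pairs; adjusted p = 0.000883). The BZP value passed among probe sets with a mean of at least 5, at 0.0325, with an intensity trend and robust prior, at 0.0352, and against the 12 DMSO arrays as 1 group, at 0.0258.

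In GRCr8 these subunit genes lie head to head on chromosome 6, and their starts, as RefSeq's windows place them, are 301 bases apart. The windows are shown because they overlap by 200 bases, given in capitals, which the pair reads from opposite strands. That of Hadha lies at chr6:31907551-31907850, plus strand, and that of Hadhb at chr6:31907451-31907750, minus strand.
Hadha: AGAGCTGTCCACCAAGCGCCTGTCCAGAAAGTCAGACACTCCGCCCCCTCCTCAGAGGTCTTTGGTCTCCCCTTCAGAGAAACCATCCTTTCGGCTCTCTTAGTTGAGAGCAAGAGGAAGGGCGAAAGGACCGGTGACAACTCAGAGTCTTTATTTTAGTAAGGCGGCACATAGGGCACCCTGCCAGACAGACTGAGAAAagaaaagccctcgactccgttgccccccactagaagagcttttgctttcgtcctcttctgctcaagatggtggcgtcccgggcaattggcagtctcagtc
Hadhb: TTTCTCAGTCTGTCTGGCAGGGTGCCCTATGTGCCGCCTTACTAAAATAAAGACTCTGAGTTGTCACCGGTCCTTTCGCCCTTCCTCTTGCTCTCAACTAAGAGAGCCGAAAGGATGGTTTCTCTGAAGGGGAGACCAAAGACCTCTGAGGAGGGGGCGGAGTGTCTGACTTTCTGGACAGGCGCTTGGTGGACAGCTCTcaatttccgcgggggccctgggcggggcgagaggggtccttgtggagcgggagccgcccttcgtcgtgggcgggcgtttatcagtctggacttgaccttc

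The drugs can be set side by side only at different concentrations. With BZP, 7 of the 10 genes and 10 of the 15 probe sets fell. Over the whole array, 5.96 percent of genes and 4.48 percent of probe sets were called lower with BZP. With TFMPP it was 6 genes and 7 probe sets, where the shares of genes and probe sets were 1.71 and 1.22 percent. MeOPP gave 6 genes and 9 probe sets (4.52 and 3.78 percent), and MDBP 6 genes and 9 probe sets (5.05 and 3.76 percent). No probe set of the 10 genes rose with any drug, where 4.75, 0.557, 2.23 and 3.22 percent of all probe sets, and 6.66, 0.872, 3.45 and 4.68 percent of genes, were called higher with BZP, TFMPP, MeOPP and MDBP. The TFMPP count was 2 probe sets without its pair 1, 4 without pair 2 and 2 without pair 3, where 0.287, 0.477 and 0.416 percent of all probe sets were called lower. The MeOPP count was 5 without its pair 1 and 5 without pair 2, where 1.92 and 2.02 percent were. With a gene's probe sets averaged, 8 of the 10 genes fell with BZP and 4 with TFMPP, and 6 with each of MeOPP and MDBP. The shares of all genes called lower in that separate fit are not given here. The 3' to 5' difference of actin and Gapdh probe sets, which reads RNA quality, exceeded its control by 0.38 in pair 1 of TFMPP, the widest of the 12 pairs. That pair also had the deepest mean difference of the 10 genes for TFMPP, at -0.63, against -0.40 and -0.39 in pairs 2 and 3, and the part of RNA quality was not tested. Without the pair terms, the count was 0 with each of the 4 drugs, where 0.0387, 0, 0.0226 and 0.0354 percent of all probe sets were called lower. Median changes over the 10 genes for BZP, TFMPP, MeOPP and MDBP were -0.93, -0.61, -0.53 and -0.73, against medians over all genes of 0.01, 0.01, 0.03 and 0.02. All treated arrays lay below all controls of the drug in 10, 6, 9 and 7 of the 15 probe sets with BZP, TFMPP, MeOPP and MDBP, where 4.58, 4.34, 5.66 and 5.8 percent of all probe sets did so.

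**Figure D3:**
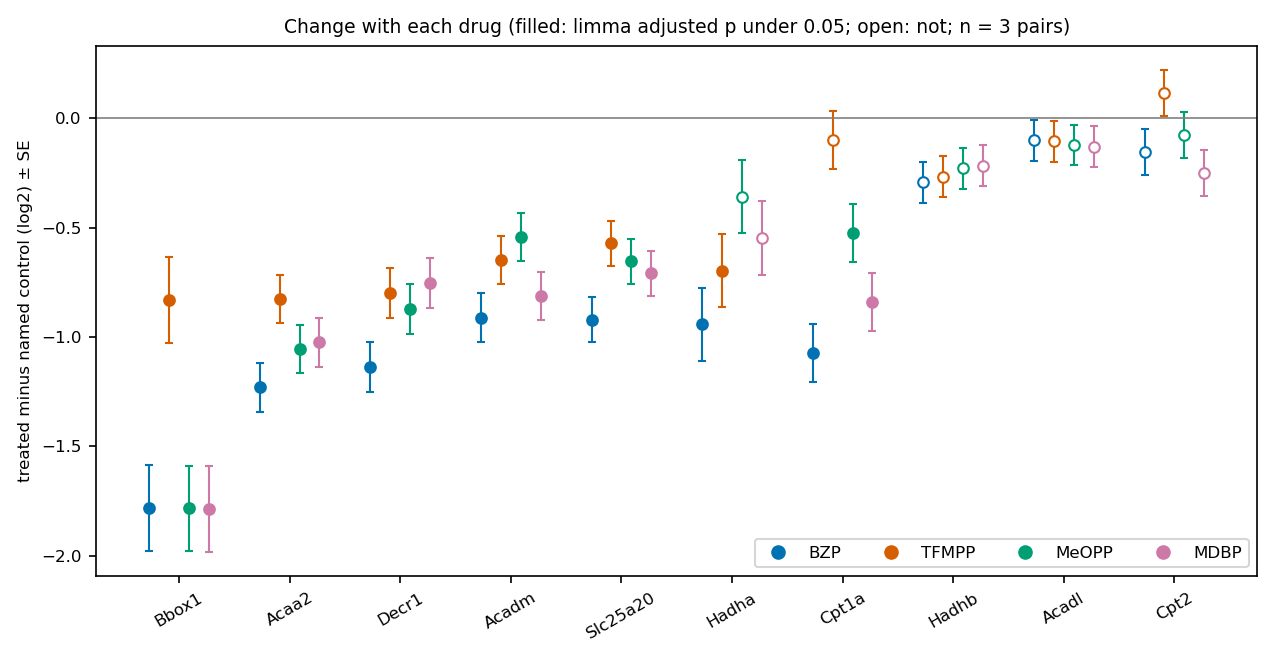
Change of the 10 genes (horizontal axis) with each drug as treated minus named control on the log2 scale, with SE bars from the fit and n = 3 pairs; filled points passed the threshold and open points did not. Slc25a20, Bbox1, Acaa2, Decr1 and Acadm are filled with all 4 drugs, Cpt1a is open with TFMPP, and Cpt2, Acadl and Hadhb are open throughout.

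In BZP and MDBP the piperazine ring bears a benzyl group, and in TFMPP and MeOPP a phenyl group. The 6 differences between drugs were tested for every probe set, with p-values adjusted over all probe sets and the 6 differences together, and 0 of the 90 differences in the 15 probe sets passed, as did 0 of 186252 over the whole array. Adjusted alone, BZP minus TFMPP passed for 16 probe sets, none of them of the 10 genes, and each of the other differences for 0. At an unadjusted p under 0.05, BZP minus TFMPP held 7 of the 15 probe sets, where 6.42 percent of all did, and MeOPP minus MDBP held 0, where 4.89 percent did. BZP minus MeOPP and TFMPP minus MDBP each held 5, where 6.93 and 6.45 percent of all did. TFMPP minus MeOPP held 4 and BZP minus MDBP 2, where 5.54 and 3.7 percent did. Limma's joint F test of the 4 drugs called 0 of the 15 probe sets and 0 of 31042. At an unadjusted p under 0.05 the F test held 5 of the 15 and 1869 of all, or 6.02 percent. Among the brightest probe sets of the genes, the widest gaps were in Cpt1a and Bbox1 and involved TFMPP. The second probe set of Acaa2, 1380504_at, had -0.88 (95% interval -1.44 to -0.33; adjusted p = 0.737) for BZP minus MeOPP. For Cpt1a, BZP minus TFMPP was -0.97 (95% interval -1.37 to -0.58; adjusted p = 0.417), and TFMPP minus MDBP was 0.74 (95% interval 0.35 to 1.14; adjusted p = 0.639). For Bbox1, BZP minus TFMPP was -0.95 (95% interval -1.54 to -0.36; adjusted p = 0.734), and BZP minus MDBP was 0.00 (95% interval -0.58 to 0.59; adjusted p = 0.999). Estimated within array sets, an alternative chosen after seeing the data, BZP minus TFMPP was -0.78 ± 0.16 (adjusted p = 0.342) for Cpt1a and -1.05 ± 0.27 (adjusted p = 0.486) for Bbox1. In the same fit Cpt1a had 0.50 ± 0.19 (adjusted p = 0.677) for TFMPP minus MDBP and -0.35 ± 0.16 (adjusted p = 0.734) for BZP minus MeOPP, against 0.74 and -0.55 across sets. For Acadl and Hadhb all 6 intervals lay between -0.36 and 0.31. That no difference passed does not show that the drugs act alike, and differences of about 1 log2 unit between the changes of Cpt1a are inside the intervals. MeOPP at 522 µM lay between MDBP at 467 µM and BZP at 625 µM, while TFMPP was given at 35 µM. Each drug was given only at its own concentration, so structure and dose cannot be told apart for any of the 4.

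**Figure D4:**
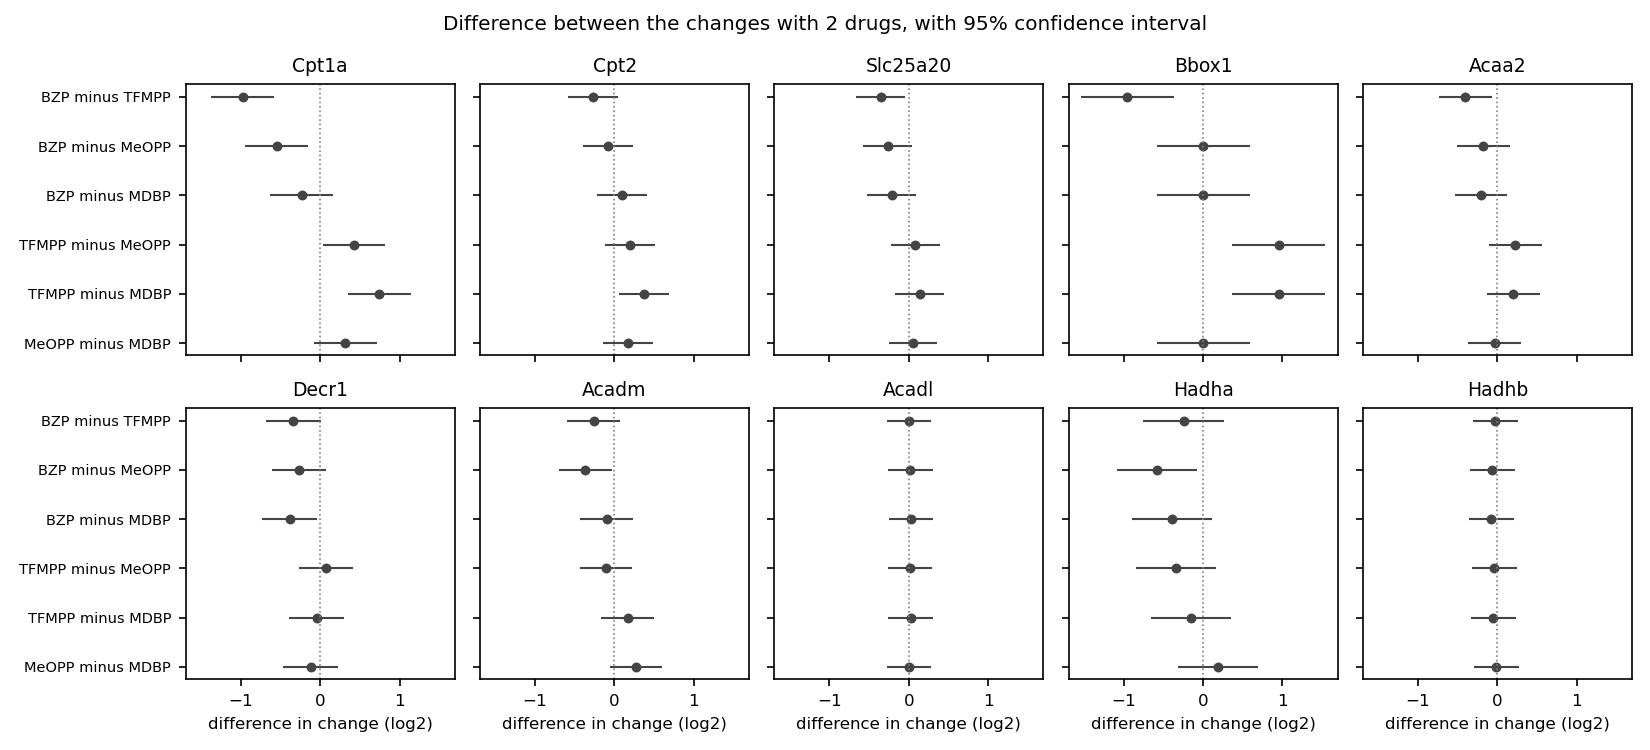
Difference between the changes with 2 drugs, first minus second as the row names it, for each of the 10 genes, on the log2 scale with the 95% confidence interval of the fit. The row farthest from 0 is BZP minus TFMPP of Cpt1a, the 3 rows of Bbox1 with TFMPP lie farther out than its other rows, and all rows of Acadl and Hadhb lie close to 0.

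The size of the changes also differed between array sets, which do not hold the same drugs. Set 1 held all 4 drugs, set 2 all but MDBP, set 3 BZP and MDBP, set 4 TFMPP and MeOPP, and set 5 MDBP alone, so drug and set are partly mixed. Cpt1a had mean differences of -0.52, -0.76, -1.06, -0.06 and -1.01 in sets 1 to 5. Slc25a20 had -0.70, -0.65, -1.03, -0.56 and -0.63, and Acadm -0.65, -0.78, -1.02, -0.50 and -0.79, each deepest in set 3. Acaa2 had -1.12, -0.95, -1.20, -0.81 and -1.07, and Decr1 -0.95, -1.02, -0.91, -0.63 and -0.75. Bbox1 had -1.49, -1.72, -1.45, -1.19 and -2.17. In set 1 Cpt1a differed from control by -0.78, -0.27, -0.45 and -0.60 with BZP, TFMPP, MeOPP and MDBP. Control levels were highest in set 3 for Cpt1a, Cpt2, Slc25a20, Bbox1, Acaa2, Decr1, Acadm and Hadha. In DMSO arrays Acaa2 averaged 12.28 in set 3 and 10.96 in set 1, while Acadl averaged 11.38 and 11.34.

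Other genes of the path fell with the 10. Of 14 further genes of mitochondrial oxidation, 13 fell and 0 rose in the mean of the drugs, where 11.9 percent of genes were called lower, and their median was -0.52. Hadh, the short-chain hydroxyacyl-CoA dehydrogenase, changed by -0.98 ± 0.09 (SE, n = 12 pairs; limma adjusted p = 6.66e-07), Acad11, another acyl-CoA dehydrogenase, by -0.79 ± 0.05, and Acat1, which joins and splits acetoacetyl-CoA, by -0.76 ± 0.05. Acad9 was the member not called, at -0.03 ± 0.06 (adjusted p = 0.783). By drug, 11 of the 14 fell under BZP, 7 under TFMPP, 8 under MeOPP and 9 under MDBP, where 5.96, 1.71, 4.52 and 5.05 percent of genes were called lower.

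For the counts of the lists that follow, 11.9 percent of all genes were called lower and 18 percent higher, and the shares of members that rose, at most 2 of 12, lay below the last. Of 7 further carnitine genes, 3 fell and 1 rose, with a median of -0.15. Aldh9a1 and Tmlhe, which act before Bbox1 in carnitine synthesis, changed by -0.64 ± 0.05 (adjusted p = 6.79e-08) and -0.15 ± 0.05 (adjusted p = 0.0462), and Slc22a5, the carnitine uptake carrier, by -0.30 ± 0.05. Cpt1b, the muscle form of the entry enzyme, rose by 0.38 ± 0.10 (adjusted p = 0.00914), higher in 11 of 12 pairs. Of 12 genes of fatty acid activation and uptake, 6 fell and 2 rose. Slc27a5 and Slc27a2, acyl-CoA synthetases of bile acids and very long chains, changed by -1.27 ± 0.14 and -0.86 ± 0.07, and Acot1, a thioesterase, by -0.92 ± 0.18, though its mean level over all arrays, 2.96, lay well below the array medians, while Acsl3 and Acsl5, which activate long chains, rose by 0.97 ± 0.08 and 0.26 ± 0.05. Their median was -0.08.

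Of 13 measured regulators, 6 fell and 1 rose, with a median of -0.10. Ppara, the receptor itself, stood at -0.10 ± 0.06 (adjusted p = 0.25), while Sirt3, the mitochondrial deacetylase, changed by -0.75 ± 0.07 (adjusted p = 1.34e-06), Ppargc1a, a coactivator of oxidation genes, by -0.39 ± 0.05 and Ppargc1b by -0.38 ± 0.06. The mean level of Ppargc1a over all arrays, 3.75, lay below the array medians of 4.454 to 4.524. Esrra, an orphan receptor that drives mitochondrial genes, rose by 0.17 ± 0.05 (adjusted p = 0.0316). Pdk4, a fasting-induced kinase, stood at 0.01 ± 0.06 (adjusted p = 0.901). Of 11 measured genes of peroxisomal oxidation, 8 fell and 0 rose, with a median of -0.48, led by Acox2 at -1.70 ± 0.09, Ehhadh at -1.20 ± 0.09 and Decr2 at -1.07 ± 0.06. Of 4 listed ketone body genes, Bdh1 and Oxct1 had a probe set named for them alone, and neither was called, at -0.11 ± 0.05 and -0.02 ± 0.05 (adjusted p = 0.121 and 0.89).

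Of 13 measured genes for the citric acid cycle, import, pores and the mitochondrial genome, 1 fell, 2 rose and 10 were not called, with a median of -0.03. Sdha, of succinate dehydrogenase, changed by -0.28 ± 0.05 (SE, n = 12 pairs; limma adjusted p = 0.000259), and Vdac2, an outer membrane pore, and Tfam, which packs mitochondrial DNA, rose by 0.15 ± 0.04 and 0.15 ± 0.05. Cs, the citrate synthase, stood at 0.14 ± 0.05 (adjusted p = 0.0642).

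**Figure D5:**
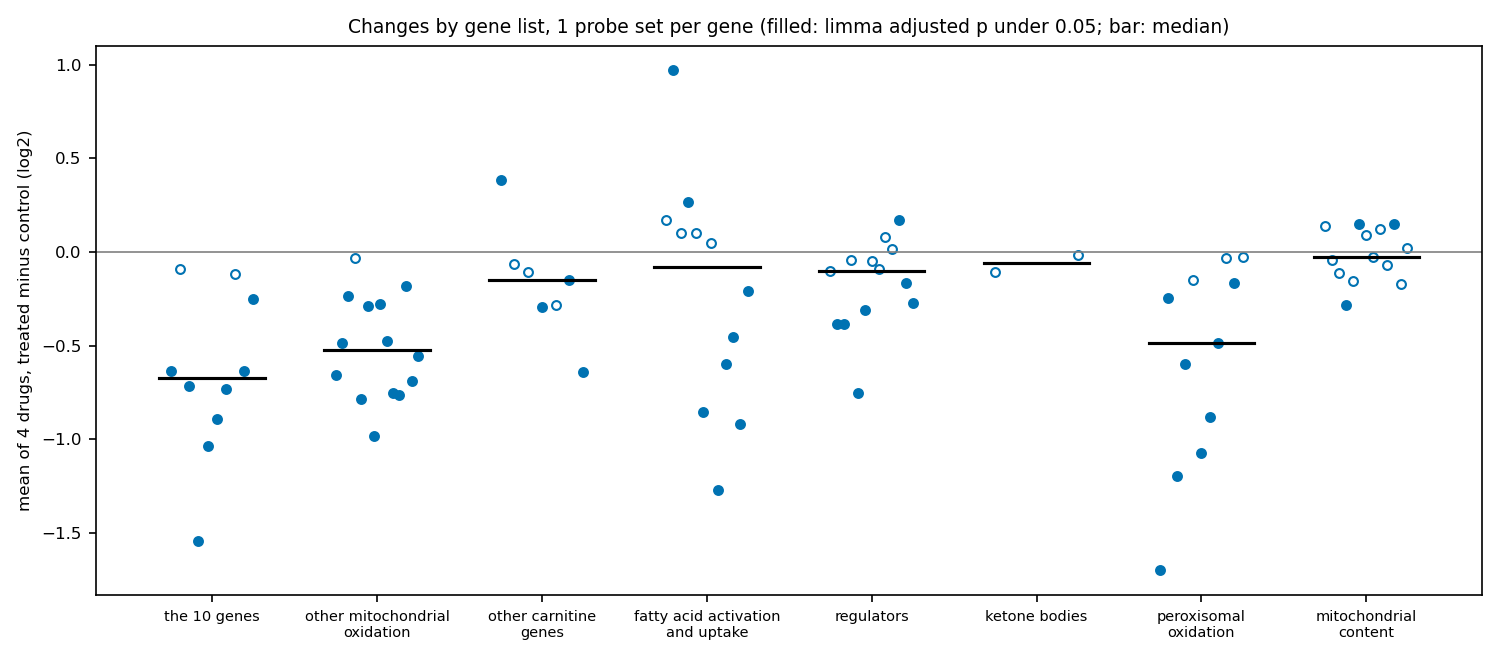
Change in the mean of the 4 drugs (treated minus control, log2) for each measured gene of 8 lists, 1 probe set per gene; filled points passed the threshold, open points did not, and the bar is the list median. All points of the 10 genes and of the other genes of mitochondrial oxidation lie below 0, and the genes of mitochondrial content lie around it.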

How the data were processed

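The deposited table holds log2 expression values per probe set, made by the authors with RMA, a background correction, quantile normalization and summary over probes, as the submitters' processing notes name it with no version. Per the labels' protocols, 100 ng of total RNA entered labelling. Array medians lay between 4.454 and 4.524, so values were used as deposited. Arrays carry no read depth, and their number limits precision. The 57 control probe sets were left out.

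Limma 3.58.1 under R 4.3.3 fitted all 24 arrays with 12 pair terms and 4 drug terms, leaving 8 residual and 7.66 prior degrees of freedom. The titles of the controls name the pairs, and deviations from group means correlated at 0.612 to 0.802 in all 12. The fit was tested on simulated data. Of the probe sets, 20826 had 1 gene symbol, 436 several and 9780 none. Promoter windows are RefSeq's, build GRCr8. Named were all members, and from each list up to 2 called rises and 3 called falls, the largest, or more where 5 or fewer were called. Marker genes of cell types, Ppara, Pdk4, Cs, Acad9 and the ketone body genes were named after their values were seen. The members, lists, motifs and tests were chosen with earlier results of these data known. Array sets came from single-linkage clustering of the DMSO arrays. Python 3.11.15 and matplotlib 3.10.9 drew the plots.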

Additional observations from a re-analysis of the deposited data

How the results depend on the processing

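In the mean of the 4 drugs, the count of called member probe sets was 11 or 12 under all 23 alternatives, always lower. Across these alternatives, 2.86 to 18.3 percent of the probe sets tested were called lower. For single drugs, no alternative gave a member probe set called higher. Without the pair terms (no replicate block) the count was 0 for BZP, TFMPP, MeOPP and MDBP each, while the mean of the drugs had 11. With the 12 DMSO arrays joined as 1 control group and no replicate block, BZP had 4, TFMPP 0, MeOPP 6 and MDBP 1, where 0.39, 0.0258, 1.33 and 0.306 percent of all probe sets were called lower. Leaving out each pair gave 10 to 10 for BZP, 2 to 8 for TFMPP, 5 to 9 for MeOPP and 8 to 10 for MDBP. The shares of all probe sets called lower were then 2.54 to 4.69, 0.287 to 1.51, 1.92 to 4.19 and 1.79 to 4.29 percent. The count of differences between drugs was 0 under all 18 alternatives, including array set as a block, which was added after seeing the data. Of 1420 values of single probe sets under an alternative, 0 reversed a called direction, 90 lost a call, 60 of them without the pair terms, and 14 gained one.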

Other observations

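Over the 12 pairs, the genes whose differences followed the mean difference of the 10 genes most closely were Cbs, Cisd1, Gcdh, Ang and Oas1a, among 8598 other genes whose mean over all arrays reached 5 on the log2 scale. Cbs makes cystathionine from homocysteine, Gcdh is a mitochondrial acyl-CoA dehydrogenase of lysine breakdown, and Cisd1 is an iron-sulfur protein of the outer mitochondrial membrane. Their Pearson r ran from 0.932 to 0.956 over 12 pairs, as a description: they are the highest of many, and pairs share 5 array sets. In the mean of the drugs Cbs changed by -0.87, Gcdh by -1.06, Cisd1 by -0.26, Ang by -0.37 and Oas1a by -0.50 on the log2 scale.

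The 3' to 5' difference of the actin and Gapdh control probe sets differed between treated and control array by -0.17 to 0.38 over the 12 pairs. It was higher in the treated array in all 3 pairs of BZP and of TFMPP and lower in all 3 of MDBP. With MeOPP, treated minus control was -0.15, -0.12 and 0.03 in pairs 1, 2 and 3. The part of RNA quality in the changes of the genes described here was not tested.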
